A study of Mus musculus with 8 samples.

Results

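Collagen genes are described here across ribosome-associated RNA of mouse neocortical synaptosomes. They were taken as the genes whose symbol reads Col, a number, the letter a and a number, which holds for 44 of the 56576 genes listed. By the build of their proteins, 11 were fibrillar, 8 belonged to basement membranes and 4 were transmembrane collagens. The other members were 9 FACIT collagens (fibril-associated collagens with interrupted triple helices), 6 beaded filament collagens of type VI, and 6 other network and anchoring collagens. They lie on 15 chromosomes, and 7 of them are on chromosome 1.

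The RNA was bound to HA-tagged ribosomes at postnatal day 15 (P15), in libraries of 2 genotypes. The 4 controls were Lhx6-Cre;Erbb4+/+;Rpl22HA/HA and the 4 mutants Lhx6-Cre;Erbb4F/F;Rpl22HA/HA, so both carry Lhx6-Cre and Rpl22HA/HA, and the same Cre drives the tag and the deletion in interneurons that come from the medial ganglionic eminence (MGE) and preoptic area. The comparison asks which ribosome-associated transcripts differ once these interneurons lack the receptor tyrosine kinase Erbb4. Control libraries carry the replicate numbers 1, 3, 4 and 5 and mutant libraries 2, 3, 4 and 5. The study names 2 batches of sequencing, and the labels tie no library to either, so within-batch values are not given.

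Collagens are secreted or membrane-bound proteins whose chains wind into triple helices. Fibrillar collagens build the fibres of meninges and vessel walls, type IV and the related collagens build sheet-like basement membranes around brain vessels and under the pia, and transmembrane collagens stay anchored in the cell surface. In the brain most collagen is made by endothelial cells, pericytes, smooth muscle cells and fibroblasts, while some non-fibrillar members, such as Col19a1 and Col25a1, are made by neurons.

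Reads counted on genes numbered 52785970, 80226984, 66499909 and 51010687 in control replicates 1, 3, 4 and 5, and 74609576, 70369732, 60144341 and 58967504 in mutant replicates 2, 3, 4 and 5. Values below are normalized counts, which are reads divided by 1 size factor per library, and 1 read was worth between 0.855 and 1.36 of them. Erbb4 itself had 1640.1 normalized counts in the library labelled control replicate 1, and 5377, 4306 and 3034 in control replicates 3, 4 and 5. Mutant replicates 2, 3, 4 and 5 had 1711, 1648, 1233 and 1048. The library labelled control replicate 1 thus sat below 2 of the mutants, while the other 3 controls were above all 4 mutants. The log2 fold change of Erbb4 (mutant over control throughout) was -1.25 (adjusted p = 0.58), and -1.58 without that library. Values without the library labelled control replicate 1 are therefore given beside many results.

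All 44 collagen genes reached the minimum set for testing, a mean of at least 10 normalized counts in at least 1 genotype. Of these, 43 reached it in both genotypes, and Col17a1 reached it through the mutants alone. A gene was called when its unadjusted limma p was at most 0.05 and its fold change at least 1.5, which is 0.585 on the log2 scale. Among collagens, 4 of 44 were higher in mutants, where 3.98% of all 31171 genes tested were called higher. No collagen (0 of 44) was lower by limma, edgeR or DESeq2, where 3.17% of all genes were lower by limma, 3.87% by edgeR and 5.05% by DESeq2. The 4 were Col4a3 and Col4a6 of basement membranes, the fibrillar Col5a3, and Col28a1. After adjustment over all genes, 0 of 44 collagens passed 0.05 in limma, where 14 of the 31171 genes did, all of them lower, and their adjusted p ran from 0.58 to 0.997. At the unadjusted threshold 4 collagens passed, and edgeR and DESeq2 each called 3 higher, without Col5a3, where they called 3.44% and 4.05% of all genes higher. The 4 mutant values lay above all 4 control values for 2 collagens (Col4a2 and Col4a6), against 2.76% of all genes, and below them for 0 collagens, against 2.17% of all genes.

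Counts depended on single libraries. Without the library labelled control replicate 1, 3 of 44 collagens were called higher (Col4a3, Col4a6 and Col28a1) and 0 lower, where 2.79% of 31217 genes were higher and 2.06% lower. Without control replicate 5, 10 were higher and 1, Col19a1, was lower, and calls over all genes were more frequent too, at 5.75% higher and 6.35% lower. Leaving out mutant replicate 3 gave 7 higher, against 4.28% of all genes. Leaving out mutant replicate 5 gave 2 lower (Col9a3 and Col6a6), against 1.65% of all genes, and leaving out mutant replicate 2 gave 1 lower (Col19a1), against 3.81%. Col4a3, Col4a6 and Col28a1 were called higher with each of the 8 libraries left out in turn.

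The class medians can be read against 0.06, the median log2 fold change of all 31171 genes tested, of which 16637 were above 0. The median was 0.73 for the 8 basement membrane collagens, all 8 of which were above 0, also under quantile normalization, TMM scaling, edgeR and DESeq2. The median was 0.22 for the 11 fibrillar collagens, of which 10 were above 0, with 11 under TMM scaling and 9 under edgeR and DESeq2. That count was 7 with the replicate number as a block. Only libraries numbered 3, 4 and 5 bear on the genotype difference in that fit. With single libraries left out the fibrillar count ran from 6 (without control replicate 3) to 11. For the 4 transmembrane collagens the median was 0.00, with 2 above 0. Their count above 0 was 3 under TMM scaling and 1 under quantile normalization, edgeR and DESeq2. FACIT collagens had a median of -0.16, beaded filament collagens 0.22, and the other network and anchoring collagens 0.73. With single libraries left out the FACIT median turned to 0.068, 0.052 and 0.098 (without control replicate 4, control replicate 5 or mutant replicate 2). The beaded filament median ran from -0.32 (without mutant replicate 3) to 0.63 (without mutant replicate 2). Over all 44 the median was 0.33, with 31 above 0 and 13 below. The difference between classes was not tested.

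Part of this rested on the library labelled control replicate 1. Without it the median was 0.43 for basement membrane collagens, with 8 of 8 still above 0. The fibrillar median became 0.08, the transmembrane median -0.16, the FACIT median -0.38 and that of all 44 members 0.10, where the median of all genes was -0.01. Above 0 were then 7 of 11 fibrillar collagens and 25 of all 44. The median of the other network and anchoring collagens became -0.06, with 2 of 6 above 0. With each library left out in turn, the fibrillar median ran from 0.08 to 0.60 and the basement membrane median from 0.43 to 0.98.

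**Figure D1:**
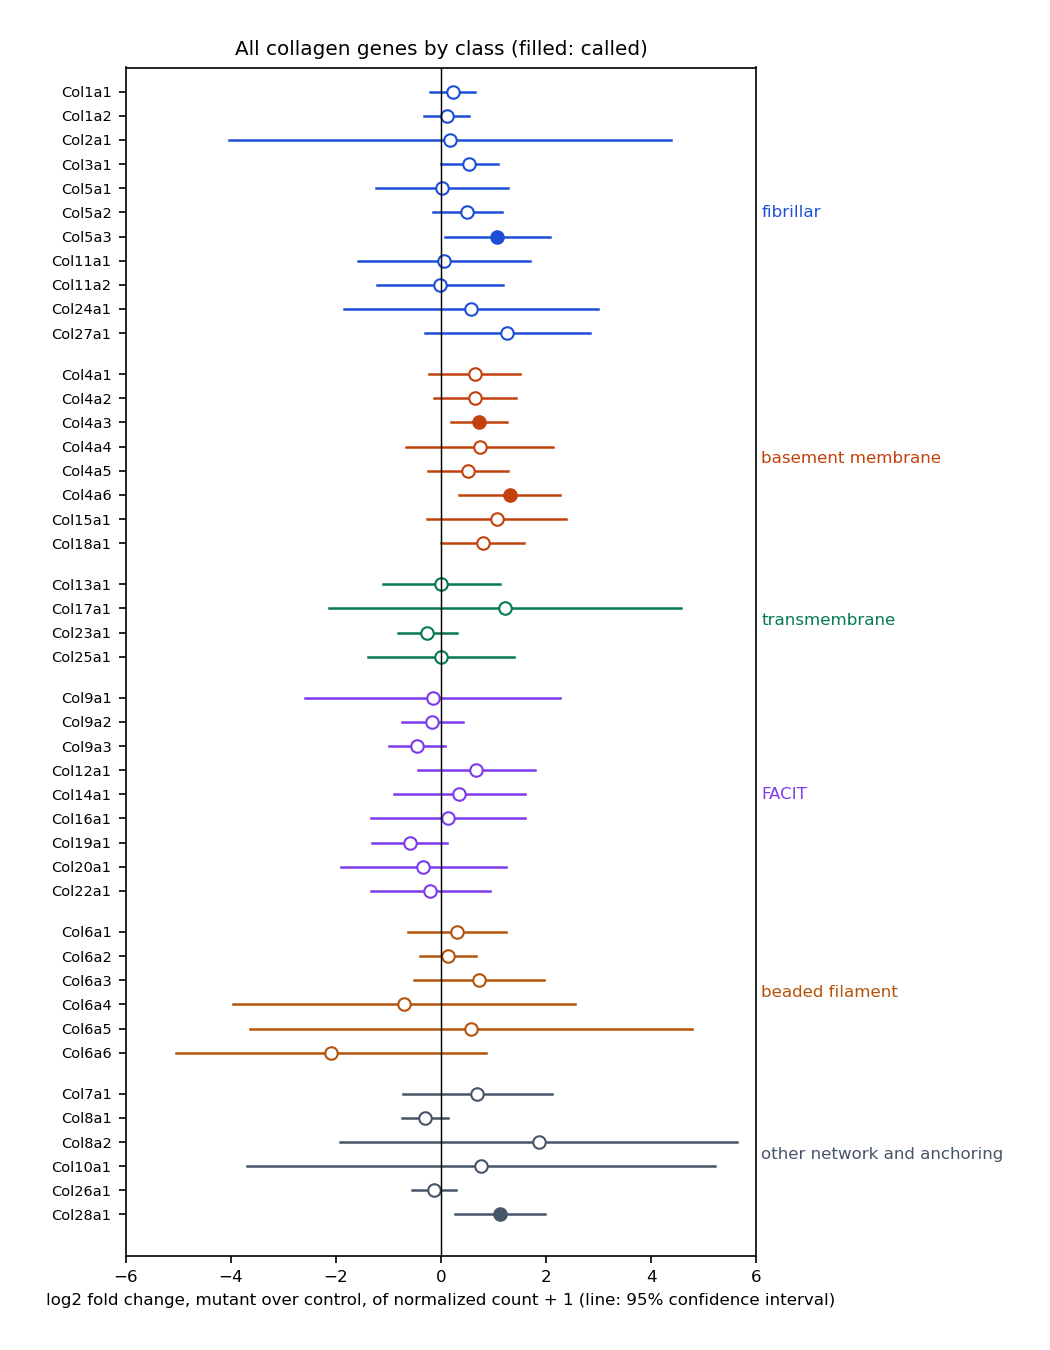
Log2 fold change of each collagen gene, mutant over control, on normalized counts plus 1, grouped by class. Lines are 95% confidence intervals of the limma fit (n = 4 per genotype) and filled circles are the 4 genes called. All 8 basement membrane collagens sit to the right of 0, and the widest lines belong to members with values of 0 in some libraries, such as Col2a1, Col6a5 and Col10a1.

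Type IV chains assemble as triplets, Col4a1 with Col4a2 in nearly all basement membranes, Col4a3 with Col4a4 and Col4a5, and Col4a5 with Col4a6. Their genes stand head to head in pairs, on opposite strands. In mm10, Col4a1 (chromosome 8, 11198423 to 11312826, minus strand) overlaps Col4a2 (11312805 to 11449287, plus strand) by 22 bases. Col4a4 (chromosome 1, 82448428 to 82586849, minus strand) ends 70 bases from Col4a3 (82586920 to 82722059, plus strand). Col4a6 (chromosome X, 141165403 to 141474076, minus strand) lies 1340 bases from Col4a5 (141475417 to 141689235, plus strand). The DNA before the start sites is shown because the partners of a pair share it. It is given as the 30 bases just before the start of Col4a2 (chr8:11312775-11312804, plus strand), which lie inside Col4a1, and of Col4a4 (chr1:82586850-82586879, minus strand), which lie between the partners. For the pair on chromosome X, a stretch between the partners is given for each, Col4a6 (chrX:141474096-141474326, minus strand) and Col4a5 (chrX:141475169-141475369, plus strand).
Col4a2: aatttgttggcgctgccccctcccctcggc
Col4a4: gtggccagcagccctgcccagattaagcgg
Col4a6: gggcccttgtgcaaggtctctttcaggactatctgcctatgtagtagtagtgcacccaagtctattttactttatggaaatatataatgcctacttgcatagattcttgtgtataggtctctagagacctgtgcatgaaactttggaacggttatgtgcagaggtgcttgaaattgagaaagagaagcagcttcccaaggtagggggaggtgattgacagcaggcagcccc
Col4a5: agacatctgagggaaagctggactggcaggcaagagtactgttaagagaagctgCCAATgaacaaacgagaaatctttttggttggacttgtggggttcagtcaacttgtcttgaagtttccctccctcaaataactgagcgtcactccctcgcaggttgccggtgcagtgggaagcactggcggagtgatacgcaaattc
Sequences are from RefSeq (GRCm38.p6), 5′ to 3′ on the gene's strand. Capitals mark a match, on either strand, to the GC box (GGGCGG), the CCAAT box (CCAAT) or the TATA box (TATAAA), and none of these overlaps another here. The stretch before Col4a5 holds 1 CCAAT match, and that before Col4a6 holds 0 matches to these letters. In windows from 250 bases before to 50 after a start site, found for 35 collagen genes, a GC box match stood in 23 of 38 collagen windows (60.5%) and in 35.7% of 32851 windows of all genes. The CCAAT letters stood in 34.2% of collagen windows and 37.4% of all, and the TATA letters in 13.2% and 13.6%. These shares describe letters and carry no measure of binding.

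Col4a1 and Col4a2 dominated the family. Per kilobase of the longest transcript, Col4a2 reached a mean of 16461 normalized counts in controls and 24129.5 in mutants, and Col4a1 reached 16055 and 22768. By this level over all 8 libraries they ranked 99 and 106 among the 16594 tested genes with a known length. Such levels are approximate, since reads were counted over constitutive regions only and the length is that of the whole transcript. Next among collagens by the same level were Col1a2 (2280.3 and 2492), Col19a1 (2769 and 1807, the higher of these 2 in controls), Col3a1 (1610.1 and 2309.6) and Col1a1 (1629.8 and 1888), all on the same scale. Of all collagen normalized counts, Col4a1 and Col4a2 together made up 59.3, 74.3, 70.5 and 71.0% in control replicates 1, 3, 4 and 5, and 76.2, 78.3, 76.0 and 73.9% in mutant replicates 2, 3, 4 and 5. The lowest share was that of the library labelled control replicate 1, and mutant replicate 5 lay just below control replicate 3.

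Col4a1 had 40940.0 normalized counts in the library labelled control replicate 1, and 116992, 128908 and 137966 in control replicates 3, 4 and 5. Mutant replicates 2, 3, 4 and 5 had 158721, 125176, 164143 and 154401. Mutant replicate 3 lay below the 2 highest controls, so the genotypes overlapped, and the library labelled control replicate 1 held less than any other. The log2 fold change was 0.64 (95% confidence interval -0.23 to 1.51, exact permutation p = 0.086, two-sided), and 0.23 without that library.

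Its partner Col4a2 had 48915, 119001, 123829 and 132951 normalized counts in control replicates 1, 3, 4 and 5, and 157521, 138515, 166715 and 159791 in mutant replicates 2, 3, 4 and 5. All 4 mutants lay above all 4 controls. The log2 fold change was 0.65 (95% confidence interval -0.13 to 1.43), and 0.31 without the library labelled control replicate 1. The exact permutation test gave p = 0.029 (two-sided), the smallest p that 4 libraries against 4 allow, yet Col4a2 did not pass the limma threshold, except with quantile normalization (0.94). Across the 8 libraries the ratio of Col4a1 to Col4a2 stayed between 0.837 and 1.04.

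Col4a3 had 724, 672, 629.6 and 1117 normalized counts in control replicates 1, 3, 4 and 5, and 1471, 1086, 1139 and 1390.2 in mutant replicates 2, 3, 4 and 5. Control replicate 5 lay among the mutants and the other 3 controls below all 4 mutants. It was called higher, with a log2 fold change of 0.72 (95% confidence interval 0.19 to 1.25, adjusted p = 0.58), and 3 of 4 mutants were above every control. The change was 0.69 and the call held without the library labelled control replicate 1. The exact permutation test gave p = 0.057 (two-sided). Its neighbour Col4a4 was scarce, with 23.2 to 134.8 normalized counts in controls and 62.4 to 126.5 in mutants, and its log2 fold change was 0.73, or 0.37 without the library labelled control replicate 1. The ratio of Col4a3 to Col4a4 ran from 8.28 to 31.2 over the libraries.

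Col4a6 had 120.0, 226.8, 496 and 423 normalized counts in control replicates 1, 3, 4 and 5, and 528, 749.6, 581 and 945 in mutant replicates 2, 3, 4 and 5. No mutant overlapped a control, and the 2 lowest controls were replicates 1 and 3. This was the largest log2 fold change of the 4 called collagens, 1.31 (95% confidence interval 0.35 to 2.27, adjusted p = 0.58), or 2.48-fold, and 4 of 4 mutants showed it. It was 0.91 and still called without the library labelled control replicate 1. The exact permutation test gave p = 0.029 (two-sided). Its neighbour Col4a5, 1340 bases away, had 323 to 880.6 normalized counts in controls and 497 to 868 in mutants, overlapping. The log2 fold change of Col4a5 was 0.51, or 0.38 without the library labelled control replicate 1. The ratio of Col4a5 to Col4a6 was 1.88 ± 0.857 in controls and 1.04 ± 0.305 in mutants (mean ± SD, n = 4).

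Col15a1 and Col18a1 are the basement membrane collagens whose ends can be released as the fragments restin and endostatin. Col18a1 had 2508, 3802, 7033 and 8387 normalized counts in control replicates 1, 3, 4 and 5, and 9290.2, 5812, 9359 and 10028 in mutant replicates 2, 3, 4 and 5. Mutant replicate 3 lay among the controls, and the other 3 mutants lay above all of them. Its log2 fold change of 0.79 (95% confidence interval -0.00 to 1.59) was just outside the threshold on p, with an adjusted p of 0.58, and was 0.47 without the library labelled control replicate 1. Col18a1 was called higher with a pseudocount of 10 (0.79), quantile normalization (0.84) or TMM scaling (0.81), and without control replicate 4 (0.97), control replicate 5 (1.05) or mutant replicate 3 (0.97). Col15a1 ran from 99.5 to 796 normalized counts in controls and from 479 to 828 in mutants, with a log2 fold change of 1.06, and 0.53 without that library.

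**Figure D2:**
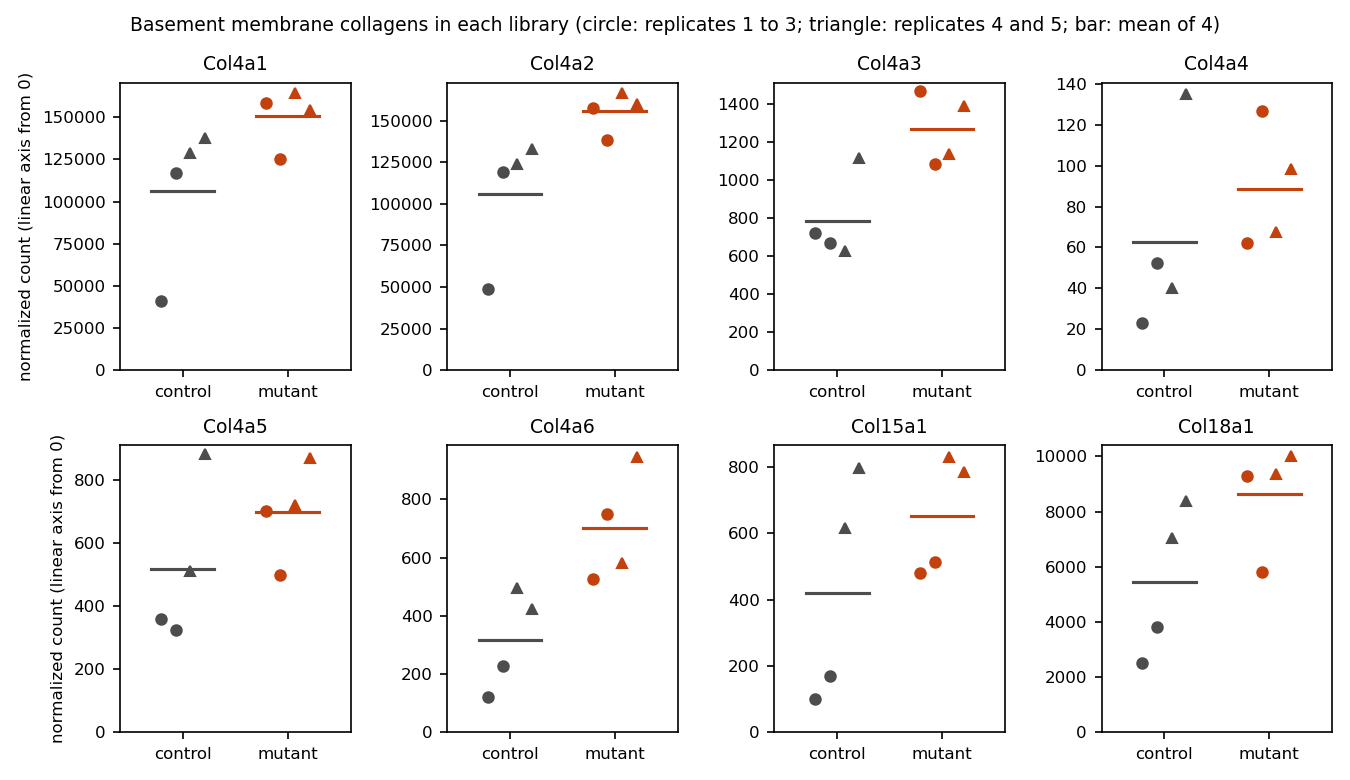
Normalized counts of the 8 basement membrane collagens in each library, on linear axes that start at 0, with controls at the left and mutants at the right of each panel. Circles are replicates numbered 1 to 3, triangles replicates 4 and 5, and bars the mean of 4. Col4a2 and Col4a6 show no overlap between genotypes, and in Col4a1, Col4a2, Col4a4, Col4a6, Col15a1 and Col18a1 the lowest point is control replicate 1.

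Summed over the class, basement membrane collagens made up 0.130, 0.293, 0.394 and 0.448% of all normalized counts in control replicates 1, 3, 4 and 5, and 0.515, 0.419, 0.557 and 0.561% in mutant replicates 2, 3, 4 and 5. The library labelled control replicate 1 was lowest and only mutant replicate 3 lay among the controls. Within the collagens the class held 61.8, 76.0, 73.2 and 74.1% in controls and 79.2, 80.9, 78.9 and 77.2% in mutants, in the same order. All 4 mutants were above all 4 controls in this share, most of which is Col4a1 and Col4a2, and for those 2 alone mutant replicate 5 lay below control replicate 3, as given above. It is given without a test.

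Among fibrillar collagens, Col1a1, Col1a2 and Col3a1, the chains of type I and type III fibres, were the most abundant. Col1a1 had 7772, 8729, 11076 and 11082 normalized counts in control replicates 1, 3, 4 and 5, and 12757, 9789, 10245 and 11998 in mutant replicates 2, 3, 4 and 5. The genotypes overlapped, and its log2 fold change was 0.22 (95% confidence interval -0.21 to 0.65), or 0.12 without the library labelled control replicate 1. Col1a2 had 11599, 11929.6, 12254 and 12998 in the same controls and 16211, 10032, 14175 and 12901 in the same mutants. The highest and the lowest value both belonged to mutants, and the log2 fold change was 0.11 (95% confidence interval -0.32 to 0.54). The ratio of Col1a1 to Col1a2 stayed between 0.670 and 0.976.

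Col3a1 had 5575, 10051, 9757 and 10451 normalized counts in control replicates 1, 3, 4 and 5, and 15696, 9677, 13329 and 12702 in mutant replicates 2, 3, 4 and 5. The library labelled control replicate 1 was far below the other controls, and mutant replicate 3 was just under them. With a log2 fold change of 0.54 (95% confidence interval -0.00 to 1.09, adjusted p = 0.58), Col3a1 was just outside both thresholds, although 3 of 4 mutants were above every control. It was 0.33 without the library labelled control replicate 1. Quantile normalization (0.62), or leaving out control replicate 3 (0.61), control replicate 5 (0.63) or mutant replicate 3 (0.67), gave Col3a1 a call.

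Col5a3, a minor chain of type V fibrils, was the fibrillar member called. It had 331, 356, 1456 and 1030.3 normalized counts in control replicates 1, 3, 4 and 5, and 1459, 1031, 1734 and 1337 in mutant replicates 2, 3, 4 and 5. Control replicates 1 and 3 were low, control replicate 5 lay just under the lowest mutant, and control replicate 4 lay among the mutants. The log2 fold change was 1.07 (95% confidence interval 0.07 to 2.08, adjusted p = 0.58), and 2 of 4 mutants were above every control. The exact permutation test gave p = 0.11 (two-sided). Without the library labelled control replicate 1 the log2 fold change was 0.75 and Col5a3 was not called. Leaving out control replicate 3 (0.79), mutant replicate 2 (1.04), mutant replicate 4 (0.96) or mutant replicate 5 (1.08) also ended the call. So did library weights (0.64) and the replicate number as a block (0.72). The DNA before its start site is shown as that of the called fibrillar member (chr9:20815118-20815317, minus strand), with capitals as above, and it holds 1 CCAAT and 1 GC box match.
Col5a3: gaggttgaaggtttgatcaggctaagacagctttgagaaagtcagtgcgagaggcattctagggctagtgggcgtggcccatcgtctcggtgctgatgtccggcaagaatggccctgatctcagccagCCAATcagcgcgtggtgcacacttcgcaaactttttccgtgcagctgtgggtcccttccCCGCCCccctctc

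Of the 7 remaining fibrillar members, 5 split by library number, and Col5a2 and Col27a1 did not. Col5a2 had a log2 fold change of 0.50, with 3 of 4 mutants above every control, and 0.20 without the library labelled control replicate 1. That of Col27a1 was 1.26, the largest of the class, with 1 of 4 mutants above every control, and neither was called. Blocking on replicate number, or leaving out control replicate 5, made Col27a1 called higher. Members described here and above that stand outside the rule for named genes, such as Col4a4, Col4a5, Col15a1, Col5a2 and Col27a1, and those that follow, were singled out after their values were seen. Col24a1 had 218, 111.9, 2232 and 2626 normalized counts in control replicates 1, 3, 4 and 5, and 519, 209.6, 2316 and 2776 in mutant replicates 2, 3, 4 and 5. In both genotypes replicates 4 and 5 were high and the others low, with a ratio of means of 9.40. Col11a1, a chain of type XI fibrils of cartilage, had 890.2, 631, 3945 and 3899.6 in the same controls and 1009.7, 631, 3580.3 and 4428 in the same mutants. Col5a1, the main chain of type V, had 2656, 3679.9, 12033 and 16771 in controls and 4416, 4351, 9451 and 11279 in mutants. The log2 fold changes of these 3 between genotypes were 0.57, 0.06 and 0.01, and without the library labelled control replicate 1 0.072, -0.26 and -0.43.

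The same division was seen beyond these members. The 4 libraries numbered 4 and 5 all lay above the other 4 libraries for 12 of 44 collagens (27.3%), and for 7.06% of all genes tested. They all lay below for 0 collagens and for 5.14% of all genes. Of the 12, 5 were fibrillar (Col2a1, Col5a1, Col11a1, Col11a2 and Col24a1) and 1 was of basement membranes (Col15a1). The others were Col6a1, Col6a3, Col7a1, Col13a1, Col16a1 and Col22a1. This division was noticed in the values and no label names it. The text and captions of the study do not say which libraries made up its 2 sequencing batches. Each genotype has 2 libraries on each side of it, and its part in the collagen results was not tested.

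**Figure D3:**
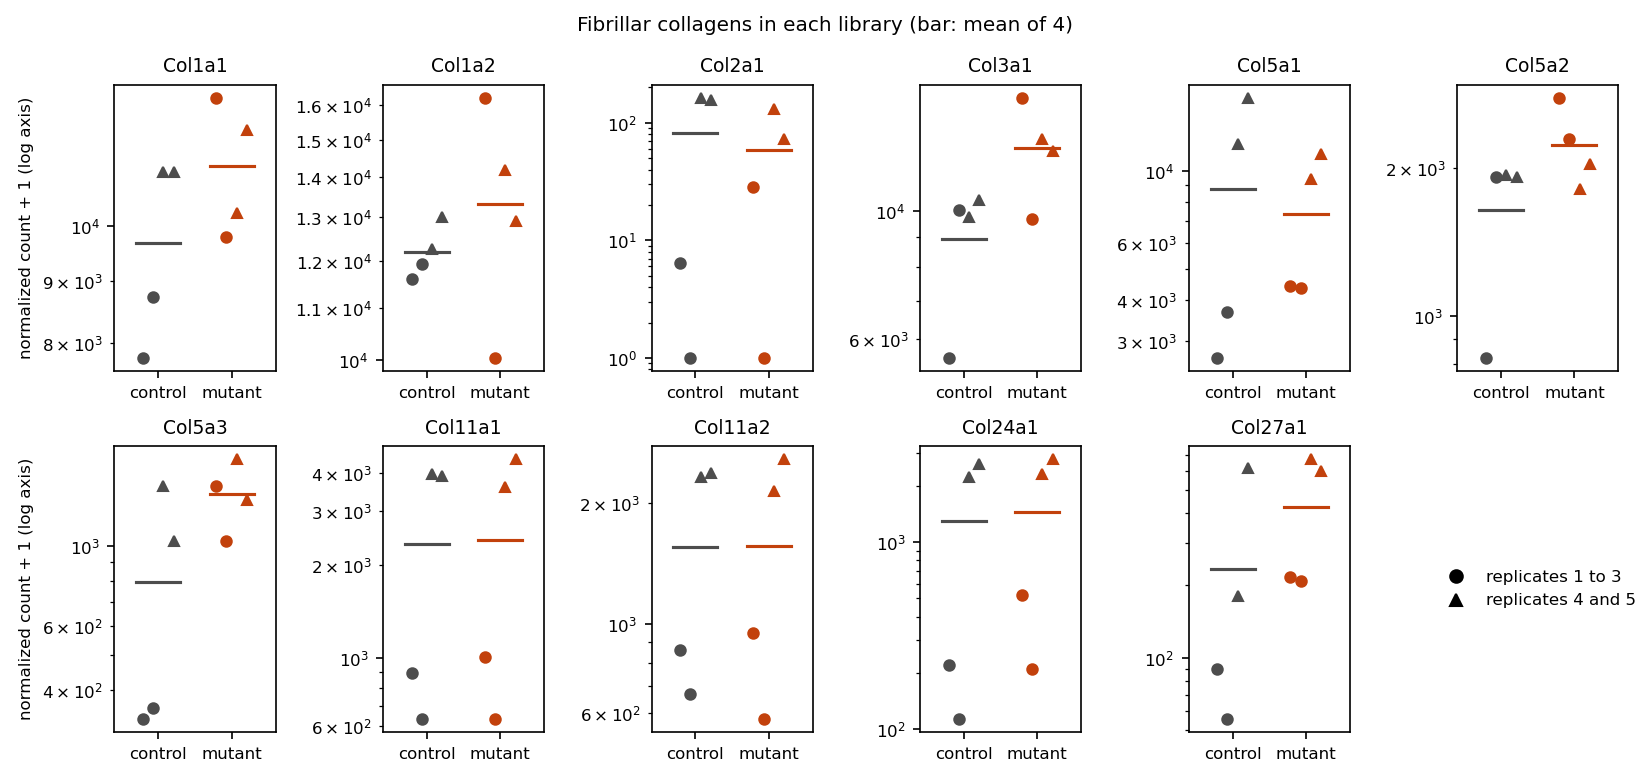
Normalized counts plus 1 of the 11 fibrillar collagens in each library, on log axes, with controls at the left and mutants at the right of each panel. Circles are replicates numbered 1 to 3, triangles replicates 4 and 5, and bars the mean of 4. In Col2a1, Col5a1, Col11a1, Col11a2 and Col24a1 the triangles of both genotypes lie above all circles, and in Col5a3 the 2 low circles are control replicates 1 and 3.

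None of the 4 transmembrane collagens was called (0 of 4 lower and 0 of 4 higher by limma, edgeR or DESeq2), although library weights in limma gave a call for Col17a1. Col23a1, the most abundant of them, had 1381, 1811, 2026 and 2163 normalized counts in control replicates 1, 3, 4 and 5, and 1024, 1421, 2080.3 and 1765 in mutant replicates 2, 3, 4 and 5. The genotypes overlapped, 1 of 4 mutants was below every control, and the log2 fold change was -0.26 (95% confidence interval -0.82 to 0.30), or -0.39 without the library labelled control replicate 1. Col13a1, a collagen of the neuromuscular junction, had 453, 154.0, 507 and 672 in controls and 273, 233, 615 and 624 in mutants. Replicates 4 and 5 were high in both genotypes, and the log2 fold change was 0.01 (95% confidence interval -1.10 to 1.12), or 0.077 without that library.

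Col25a1, made by neurons and known from amyloid plaques, had 42.3, 358, 232 and 134.8 normalized counts in control replicates 1, 3, 4 and 5, and 160.7, 244, 109.7 and 109.2 in mutant replicates 2, 3, 4 and 5. Both the lowest and the highest value were those of controls. Between genotypes the log2 fold change was -0.01 (95% confidence interval -1.40 to 1.38), and -0.60 without the library labelled control replicate 1. Col17a1, a collagen of skin hemidesmosomes, had 20.4, 6.16, 0 and 7.42 in controls and 0, 15.7, 109.7 and 19.8 in mutants. Mutant replicate 4 alone carried its mean, and its log2 fold change of 1.22 (95% confidence interval -2.13 to 4.58) was not resolved. Library weights put it at 3.18, called higher, and it was 1.84 without the library labelled control replicate 1. Col17a1 reached the minimum for testing through the mutants alone, so no result is read from that call. The confidence intervals above are wide enough to hold a fold change of 1.5 in both directions for Col13a1, Col17a1 and Col25a1.

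FACIT collagens, which sit on the surface of fibrils, were the class with most members below 0 (6 of 9), and 0 of 9 were called. Col19a1, which brain interneurons make and which takes part in forming their synapses, had 11326, 23266, 15859 and 9808 normalized counts in control replicates 1, 3, 4 and 5, and 13675, 11710.4, 7097 and 6842 in mutant replicates 2, 3, 4 and 5. Mutant replicates 4 and 5 were below every control, and mutant replicates 2 and 3 lay among the controls. The log2 fold change was -0.60 (95% confidence interval -1.31 to 0.11, adjusted p = 0.58), and -0.71 without the library labelled control replicate 1. It was called lower without control replicate 5 or without mutant replicate 2, at -0.78 each time. Library weights (-0.83) and the replicate number as a block (-0.89) also gave Col19a1 a call. Col9a3, a chain of type IX, had 3189, 2218, 2525 and 3040.1 in controls and 1696, 1476, 2101 and 2876 in mutants. Of its mutants 3 of 4 were below every control, with a log2 fold change of -0.46 (95% confidence interval -0.99 to 0.07), and without mutant replicate 5 it was called lower, at -0.64.

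Of the type VI collagens, which form beaded filaments around cells, Col6a1 and Col6a2 were the most abundant. Col6a1 had 1677, 1100.4, 2662 and 2849.6 normalized counts in control replicates 1, 3, 4 and 5, and 1793, 1210.3, 3508 and 4297 in mutant replicates 2, 3, 4 and 5, so replicates 4 and 5 were high in both genotypes. Its fold change was 0.31 on the log2 scale (95% confidence interval -0.63 to 1.24). Col6a2 ran from 899.8 to 1539 in controls and from 1058 to 1526 in mutants, with a log2 fold change of 0.13. Col6a4, Col6a5 and Col6a6 each had at least 1 mutant library at 0. The lowest log2 fold change of any collagen, -2.09 for Col6a6, had a 95% confidence interval from -5.04 to 0.85, with mutants at 5.13, 0, 33.8 and 152.8 in replicates 2, 3, 4 and 5.

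Among the other network and anchoring collagens, Col28a1, a member found in peripheral nerve, was called higher. It had 642, 673, 1669 and 2035 normalized counts in control replicates 1, 3, 4 and 5, and 2251, 1697, 2933 and 2948 in mutant replicates 2, 3, 4 and 5. Mutant replicate 3 lay under control replicate 5, and the other 3 mutants lay above every control. Its log2 fold change was 1.12 (95% confidence interval 0.27 to 1.98, adjusted p = 0.58), or 2.18-fold, and 0.86 without the library labelled control replicate 1, where it was still called. The exact permutation test gave p = 0.057 (two-sided). Col8a1, of vascular and corneal networks, had 2909, 1928, 2935 and 2309 in controls and 2126, 1929, 1835 and 2163 in mutants. The genotypes overlapped, with a log2 fold change of -0.31 (95% confidence interval -0.74 to 0.13). The highest log2 fold change of any collagen, 1.86 for Col8a2, rested on a value of 0 in the library labelled control replicate 1, and it was -0.38 without that library.

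**Figure D4:**
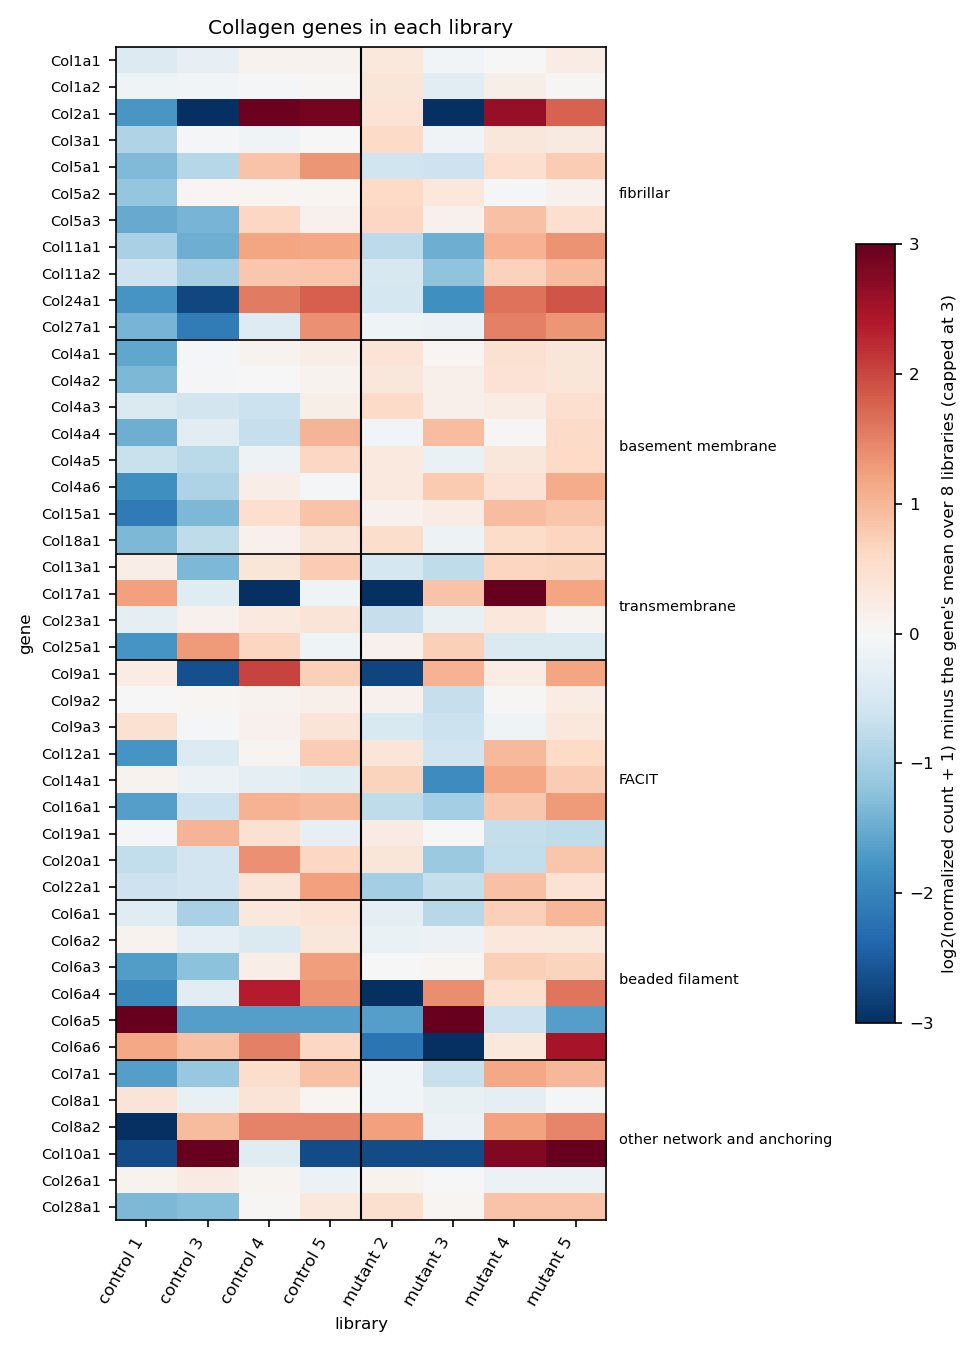
All 44 collagen genes by class, as log2 of the normalized count plus 1 minus the gene's mean over the 8 libraries, with colours capped at 3. Controls are the 4 columns at the left and mutants the 4 at the right. The library labelled control replicate 1 is low across the basement membrane class, and the columns of replicates 4 and 5 are high in both genotypes for Col5a1, Col11a1, Col11a2, Col16a1 and Col24a1.

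Genes that fold, process, bind or degrade collagen were read from 5 lists, and their calls can be set beside the 3.98% of all genes called higher and 3.17% called lower. Of 18 genes for folding and modification, 1 was lower and 0 higher, and the median log2 fold change was -0.23, or -0.16 without the library labelled control replicate 1. The lower gene was Ppib, a proline isomerase that folds procollagen, with 26808, 28455, 14903 and 11731 normalized counts in control replicates 1, 3, 4 and 5, and 14143, 14116, 8641 and 7325 in mutant replicates 2, 3, 4 and 5. Both genotypes were higher in the replicates numbered 1 to 3, and the genotypes overlapped. For Ppib the log2 fold change was -0.85 (95% confidence interval -1.59 to -0.11), and -0.69 without the library labelled control replicate 1, where it was not called. The call also ended without control replicate 3 (-0.66), mutant replicate 4 (-0.75) or mutant replicate 5 (-0.67). With single libraries left out, 0 to 4 genes of this list were lower. The 4 came without control replicate 5, where 6.35% of all genes were lower. The gene with the highest count in this list, Mia3, which loads procollagen for export, had a log2 fold change of -0.33.

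Of 13 genes for processing and crosslinking, 1 was higher and 0 lower, with a median of 0.21 and 10 above 0. Without the library labelled control replicate 1 the median was -0.0013, with 6 above 0 and 0 called. That gene was Lox, which crosslinks collagen and elastin, with 88.6, 355, 176 and 254 normalized counts in control replicates 1, 3, 4 and 5, and 339, 367, 494 and 423 in mutant replicates 2, 3, 4 and 5. Control replicate 3 lay among the mutants, and the other controls lay below. Its log2 fold change of 1.05 (95% confidence interval 0.11 to 1.98) became 0.67, and was not called, without the library labelled control replicate 1. Leaving out control replicate 4 (1.00), mutant replicate 4 (0.95) or mutant replicate 5 (1.02) also ended the call, as did the block (0.75). With single libraries left out, 0 to 2 genes of this list were higher and 0 to 1 lower. The 2 came without control replicate 5, where 5.75% of all genes were higher. Bmp1, the procollagen C-proteinase and the most abundant gene of the list by count, had a log2 fold change of 0.08, or -0.084 without the library labelled control replicate 1.

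Of 12 collagen receptors, Gp6, the platelet receptor, was at 0 in all 8 libraries, and 11 were tested, with a median of 0.21, or 0.12 without the library labelled control replicate 1. Without it 1 was lower (Itga11, -1.43) and 0 higher, where Itga11 had been at -0.22 with all libraries. With single libraries left out, 0 to 1 receptors were lower and 0 to 3 higher. The 3 came without control replicate 5, where 5.75% of all genes were higher. Itga1, an integrin chain that binds type IV collagen, was higher, with 5872, 4900.4, 6877 and 6966 normalized counts in control replicates 1, 3, 4 and 5, and 7540.1, 7787, 12788 and 9582 in mutant replicates 2, 3, 4 and 5. The genotypes did not overlap, and the log2 fold change was 0.60 (95% confidence interval 0.11 to 1.08). It was 0.58 without the library labelled control replicate 1, just under the fold threshold. The call also ended without control replicate 3 (0.49), mutant replicate 4 (0.44) or mutant replicate 5 (0.58). Itga2, an integrin chain that binds fibrillar collagen, was lower, with 162, 167, 75.1 and 82.9 in controls and 50.4, 3.69, 83.0 and 17.9 in mutants. Its log2 fold change was -2.21 (95% confidence interval -4.15 to -0.26). The call ended with edgeR (-1.62), library weights (-1.41) or the block (-2.39). It also ended without control replicate 1 (-2.04), control replicate 3 (-2.03), mutant replicate 3 (-1.41) or mutant replicate 5 (-2.08). Itgb1, their shared partner chain and the most abundant of the list by count, had a log2 fold change of 0.21, or 0.12 without the library labelled control replicate 1.

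The 17 basement membrane partners are laminin chains, nidogens, perlecan, agrin, Sparc and the crosslinking enzyme Pxdn. Of these, 15 were above 0, the median was 0.38, 1 was higher (2 by DESeq2) and 0 lower. With single libraries left out, the count higher ran from 0 (without mutant replicate 4) to 3 (without control replicate 3 or 4). In those fits 1.98, 3.78 and 5.75% of all genes were higher. Lamc3, a laminin chain of the pial basement membrane and of vessels, had 1047, 3991, 5234 and 5384 normalized counts in control replicates 1, 3, 4 and 5, and 7843, 5712, 8869 and 8224 in mutant replicates 2, 3, 4 and 5. All mutants lay above all controls. The log2 fold change was 1.2 (95% confidence interval 0.20 to 2.20), and 0.65, still called, without the library labelled control replicate 1. Without mutant replicate 4 the call ended, at 1.12. The median of this list was 0.17 without the library labelled control replicate 1. Sparc, a secreted protein that binds type IV collagen and had the highest count of the list, had a log2 fold change of -0.19, or -0.055 without the library labelled control replicate 1. Of 10 genes for collagen degradation, limma called 0 lower and 0 higher, edgeR called 1 higher and DESeq2 called 2 higher. The median was 0.14, or 0.25 without the library labelled control replicate 1. Timp2, a metalloproteinase inhibitor and the most abundant of that list by count, had 24648 to 50214 normalized counts in controls and 23399.9 to 24255 in mutants. The genotypes did not overlap, and the log2 fold change was -0.47. Without control replicate 5 Timp2 was called lower, at -0.61.

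Markers of the cell types that a synaptosome preparation could hold were read beside the collagens. These are bulk libraries of pulled-down RNA. In them the number of cells of a type, their RNA per cell and RNA from untagged cells cannot be told apart. Over all genes, 3.98% were called higher and 3.17% lower, and 16637 of 31171 were above 0. Of 14 mural cell (pericyte and smooth muscle) markers, all 14 were above 0 and 4 were called higher (Pdgfrb, Abcc9, Myh11 and Notch3; 3 by edgeR and 4 by DESeq2), with a median of 0.50. Their summed normalized counts were 50017, 72749, 70425 and 74516 in control replicates 1, 3, 4 and 5, and 99591, 84528, 97244 and 90806 in mutant replicates 2, 3, 4 and 5. All mutants were above all controls, and the library labelled control replicate 1 was lowest, as for Col4a1 and Col4a2. Vtn was the most abundant marker by count, with a log2 fold change of 0.01, or 0.13 without that library. Pdgfrb, the pericyte receptor, had 2578, 7843, 10414 and 10114 in controls and 14195, 9744, 16839.5 and 15628 in mutants, with a log2 fold change of 1.02. It was 0.56, and not called, without the library labelled control replicate 1, and 0.54, not called, with the block. The Pdgfrb call also ended without mutant replicate 2 (1.01), mutant replicate 4 (0.93) or mutant replicate 5 (0.96).

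Of 14 endothelial markers, 4 were called higher (Flt1, Kdr, Tek and Tie1) and 0 lower, with 10 above 0 and a median of 0.30. They summed to 292369, 459551, 328561 and 264393 normalized counts in controls and 422736, 414724, 434653 and 407516 in mutants, in the same order of replicates. Control replicate 3 was the highest of all and the other controls were below every mutant. The most abundant by count, Cldn5, a tight junction protein, had a log2 fold change of -0.13, and Pecam1, with no overlap, 0.46. Of 15 fibroblast and meningeal markers, 1 was called higher (Foxc1, also the most abundant by count, 0.65) and 0 lower, with a median of 0.19. They summed to 34886, 23252, 33746 and 38367 in controls and 29473, 28813, 45299 and 45156 in mutants. The Foxc1 call ended without control replicate 1 (0.48), mutant replicate 4 (0.52) or mutant replicate 5 (0.56). The defining proteoglycans Dcn and Lum were present in every library, with 1544 to 4024 and 242 to 600 normalized counts in controls, and log2 fold changes of -0.07 and 0.19, or 0.23 and 0.40 without the library labelled control replicate 1. Without the library labelled control replicate 1, the markers called higher were 1 mural (Abcc9), 1 endothelial (Tek) and 0 fibroblast. In that fit 2.79% of all genes were higher, and the medians of these lists were 0.32, 0.29 and 0.23. Above 0 were 13 of 14 mural, 11 of 14 endothelial and 13 of 15 fibroblast and meningeal markers.

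Interneuron markers were mostly below 0. Of 13 markers of MGE-derived interneurons, all 13 were below 0 and 2 were called lower (Gad1 and Gad2), against 4 by edgeR and 5 by DESeq2, with a median of -0.69. They summed to 78664, 131721, 69640 and 38378 normalized counts in controls and 61264, 64764, 27340 and 21351 in mutants, in the same order. In both genotypes replicates 4 and 5 were lowest. Nxph1 was the most abundant by count, and Lhx6 had 701 to 1781 in controls and 532 to 964 in mutants, with a log2 fold change of -0.69. Of 10 markers of PV+ interneurons, 5 were lower, against 5 by edgeR and 7 by DESeq2, with a median of -1.15, summing to 97836, 164602, 70821 and 36611 in controls and 56035, 56517, 24450 and 20051 in mutants. Their most abundant gene by count was Cplx1 (-1.19), and Pvalb itself had a log2 fold change of -2.08. Of 10 markers of SST+ interneurons, 1 was lower, against 1 by edgeR and 2 by DESeq2, with a median of -1.26, and Sst, the most abundant by count, ran from 31270.0 to 367992 in controls and from 5964 to 143143 in mutants. Without the library labelled control replicate 1 the markers called lower were 0, 3 and 2 in these lists, where 2.06% of all genes were lower. The medians without that library were -0.70, -1.08 and -1.11.

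Other cell types were present too. Of 10 oligodendrocyte markers, 3 were lower, against 5 by edgeR and 6 by DESeq2, with a median of -0.62 and Mbp highest by count, and they summed to 673772 in the library labelled control replicate 1, 229955 to 362807 in the other controls and 202878 to 287269 in mutants. Without that library 0 were called lower and the median was -0.34. Of 11 astrocyte markers 0 were called by limma or edgeR, and 1 was lower by DESeq2. Their median was -0.11, or -0.018 without the library labelled control replicate 1. Aldoc was highest by count, and the 11 markers summed to 140658 to 251899 in controls and 148600 to 167493 in mutants. Of 11 microglial markers 1 was lower by limma and edgeR and 2 by DESeq2, with a median of -0.47 and Csf1r highest by count, and they summed to 27702 to 56103 in controls and 28636 to 33604 in mutants. Leaving out the library labelled control replicate 1 gave 0 microglial markers called and a median of -0.24. Of 10 markers of oligodendrocyte precursors 0 were called by limma, edgeR or DESeq2, with a median of -0.18 and Olig1 highest by count, and of 11 excitatory neuron markers tested 1 was lower and 1 higher, with a median of -0.21 and Slc17a7 highest by count. Of 8 tested choroid plexus markers 1 was lower (Kcnj13), and 0 without the library labelled control replicate 1. Their median was -0.16, or -0.28 without that library. Enpp2, which other cells also express, was highest by count. The defining choroid plexus marker Otx2 was at 0 in all 8 libraries and Ttr ran from 0 to 60.6. Cspg4 and Pdgfra each stand in 2 of these lists. With each library left out in turn, the markers called higher ran from 1 to 6 among mural and from 1 to 5 among endothelial markers, and those called lower from 0 to 8 among MGE-derived, from 1 to 8 among PV+ and from 0 to 5 among SST+ interneuron markers. Over all genes the same fits called between 1.98 and 5.75% higher and between 1.65 and 6.35% lower. The part of vascular, glial and interneuron RNA in the collagen values was not tested.

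**Figure D5:**
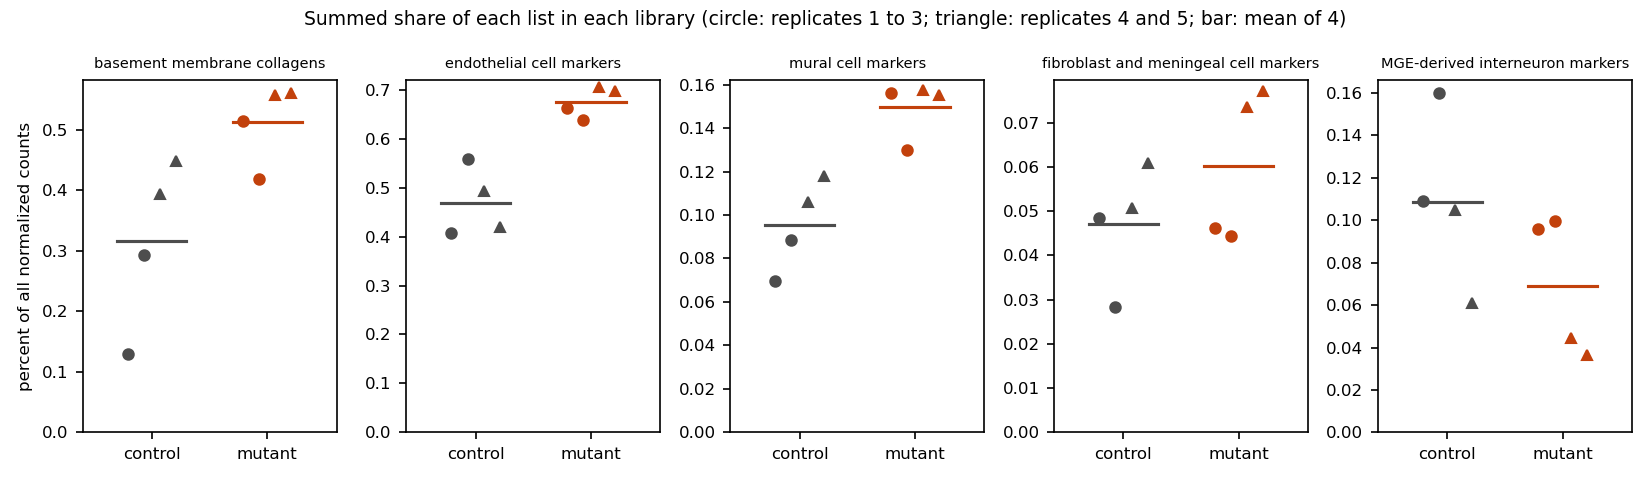
Share of all normalized counts, in percent, held by the basement membrane collagens and by 4 marker lists in each library, on axes that start at 0, with controls at the left and mutants at the right of each panel. Circles are replicates numbered 1 to 3, triangles replicates 4 and 5, and bars the mean of 4. The shares of mural and endothelial markers in the 4 mutants lie above those in the 4 controls, control replicate 1 is lowest for basement membrane collagens and for mural and endothelial markers, and MGE-derived interneuron markers overlap between genotypes.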

How the data were processed

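RNA from 8 libraries of P15 synaptosomes was analysed. The authors aligned reads to mm10 with STAR 2.4.0 and took counts over constitutive regions, by Fast DB gene. The deposited values are a signal given as normalized counts, reads divided by 1 DESeq2 size factor per library. Whole reads were recovered with each library's value for 1 read, within 0.01, for the depths and for edgeR and DESeq2. Genes whose mean was 10 or more in a genotype were fitted on log2(normalized count + 1) in limma 3.58.1 under R 4.3.3, with its mean-variance trend, control and mutant being the groups, and no covariate. P-values were adjusted over all 31171 genes by the Benjamini-Hochberg method. The exact permutation test, two-sided, compared the genotypes' mean log2 values over all 70 regroupings of the libraries. Confidence intervals are those of limma. Depths ran from 51010687 to 80226984 reads, and the intervals hold the spread between libraries and counting error together. The procedure was also tested on simulated counts, drawn independently for each gene and library. They held no division by replicate number and no library set apart from the rest.

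Length is that of the longest GENCODE transcript sharing the symbol, found for 44 of 44 collagens. RefSeq gave the sequences. Tables and figures were made with Python 3.11.15, pandas 2.3.3, scipy 1.17.1 and matplotlib 3.10.9.

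The genes named are the collagens called, the 3 (fibrillar and basement membrane) or 2 (other classes) with the highest mean of each class, all 4 transmembrane collagens, the 2 closest to the threshold on p without a call, the pathway genes called, the gene with the highest mean of each list, and Lhx6, Erbb4, Pvalb, Sst, Dcn, Lum, Pdgfrb, Cldn5, Pecam1 and Ttr. The members and lists were chosen with earlier results of these data known. Alternatives were pseudocounts of 0.1 and 10, other filters on low values, quantile normalization, TMM scaling, edgeR 4.0.16, DESeq2 1.42.0, library weights, the replicate number as a block, stricter thresholds, and each library left out. The paper's filter against intergenic background was not repeated, and gene ontology was not analysed here.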

Additional observations from a re-analysis of the deposited data

Results flagged for a closer look

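Among 98 groups of 4 libraries, each a named gene in 1 genotype, 2 held a value far from the other 3, and chance sets apart about 1 in 20 groups. Both were values of the library labelled control replicate 1. Col4a2 had 48915 normalized counts there, against 119001 to 132951 in the other controls. Col3a1 had 5575 there, against 9757 to 10451 in the other controls. The log2 fold changes without this library are 0.31 for Col4a2 and 0.33 for Col3a1.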

How the results depend on the processing

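Over the alternatives other than stricter thresholds, the 19 named collagen genes gave 360 comparisons, of which 322 kept their direction and their side of the thresholds, 9 lost a call, 17 gained one and 12 changed sign. The other 30 named genes gave 569, of which 490 kept both, 37 lost a call, 17 gained one and 25 changed sign. Erbb4 kept its sign under each alternative, and its call under each except an adjusted p under 0.05, where its value was 0.58.

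The count of collagens called lower, 0, became 1 with library weights and 1 when replicate numbers were a block (Col19a1 both times). With both of these Col5a3 lost its call. Col27a1 gained one with the block. Col17a1, which reached the minimum for testing through the mutants alone, gained one with weights. The count higher was 4 both times, of which 3 were also called in the main fit. Over all genes, 5.24% (weights) and 5.51% (block) were then lower, against 3.17%, and 6.41 and 4.64% higher, against 3.98%. Between 0 and 2 collagens were lower with each library left out. The count called higher, 4, became 7 with quantile normalization, where 4.26% of all genes were called higher against 3.98%, 0 at an adjusted p under 0.05 (as for all genes, of which 0 were higher and 14 lower), 0 at an unadjusted p of at most 0.01 (where 0.68% of all genes were higher), and ran from 3 to 10 with each library left out, where all genes ran from 1.98 to 5.75%. Number 1 occurs only in controls and number 2 only in mutants. With the block, therefore, only libraries numbered 3, 4 and 5 bear on the genotype difference. Blocking on replicate number gave class medians of 0.06 (fibrillar, below the 0.08 to 0.60 seen with each library left out), 0.47 (basement membrane), 0.03 (transmembrane) and 0.11 (other network and anchoring). The last was 0.73 in limma without the block and 0.25 with edgeR. Deviations from the genotype mean correlated at 0.1004 for replicates 3, 0.098 for replicates 4 and 0.082 for replicates 5, across genes, which are not independent. Pairs of unlike number ran from -0.115 (control replicate 3 with mutant replicate 4) to 0.085 (control replicate 5 with mutant replicate 4). Libraries numbered 4 and 5 correlated positively across genotypes with each other and negatively with those numbered 1 to 3. Whether shared numbers pair the libraries was not tested. With a minimum mean of 100, 36 collagens were tested.

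Of the other named genes, Nxph1 and Lhx6 gained calls with library weights (-1.25 and -0.83) and with the block (-1.18 and -0.81). They also gained calls without control replicate 5 (-1.44 and -0.93), mutant replicate 2 (-1.30 and -0.80) or mutant replicate 3 (-1.35 and -0.83). Calls were gained by Sst with the block (-1.88), Mbp with edgeR (-0.73) and DESeq2 (-0.74), and Lhx6 with DESeq2 (-0.70). Pecam1 gained one with quantile normalization (0.59), Aldoc without control replicate 4 (-0.66) and Timp2 without control replicate 5 (-0.61). Pvalb and Cplx1 lost theirs without control replicate 1 (-1.89 and -1.03), control replicate 3 (-1.60 and -0.88), mutant replicate 4 (-1.76 and -1.04) or mutant replicate 5 (-1.51 and -0.93).

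Log2 fold changes of opposite sign were as follows, and the cause was not tested. With quantile normalization Col13a1 was at -0.037, Sparc 0.28, Slc17a7 0.16, Cldn5 0.16 and Ttr -0.39. Col13a1 was at -0.024 with edgeR and -0.034 with DESeq2, and Col25a1 at 0.013 with TMM scaling. With library weights Dcn was at 0.12 and Ttr at -1.17. With the block Col1a2 was at -0.017, Dcn 0.23 and Ttr -1.84. With each library left out, Col13a1 ran from -0.44 to 0.27, Col25a1 from -0.60 to 0.42, Bmp1 from -0.084 to 0.24, Sparc from -0.38 to 0.0067, Cldn5 from -0.35 to 0.13, Vtn from -0.12 to 0.13, Dcn from -0.23 to 0.23, Lum from -0.038 to 0.40 and Ttr from -1.04 to 1.26.

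With 4 libraries per genotype, spread between libraries sets the limit. Members with few reads, such as Col2a1, Col6a5, Col10a1 and Col17a1, have intervals too wide to show a difference. The part of counting error in that width was not tested. The labels state no strand information for the reads, and those in the 22 bases shared by Col4a1 and Col4a2 cannot be told apart. No library of untagged tissue was used here, so enrichment over the whole cortex cannot be read from these values.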
